A study of Homo sapiens with 15 samples.

Results

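High-dose butyrate was set against medium-dose butyrate in HepG2, a human liver cancer cell line that keeps many hepatocyte traits. The comparison uses the 3 libraries of cells given palmitate with 1.5 mM sodium butyrate (high) and the 3 libraries of cells given palmitate with 1 mM (medium), 6 of 15 libraries in all. It covers all genes: 20309 of the 39133 in the deposited table passed the filter on low counts and were tested. The other 9 libraries are 3 of cells given palmitate with 0.5 mM butyrate (low), 3 of cells given palmitate alone and 3 untreated controls. All cells were wild type, grown with 10% serum and harvested at 48 h. By the library names, the butyrate groups had 24 h of palmitate and then 24 h of butyrate, and the palmitate group had 48 h of palmitate. The concentration of palmitate stands in the labels as 200 mM, a unit that could not be checked. No group received butyrate without palmitate, so high and medium butyrate are compared only in palmitate-treated cells of a single line.

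Butyrate is a short-chain fatty acid that gut bacteria make from fibre, and it reaches the liver through the portal vein. Inside cells it inhibits histone deacetylases, the enzymes that remove acetyl groups from histone tails. Inhibitors of this class are known to arrest the division of tumour cells and to raise genes such as CDKN1A. Palmitate is a saturated fatty acid that is widely used to impair insulin action in cultured liver cells.

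The hepatocyte label was checked on 10 markers, all of which were detected in all 6 libraries. ALB, encoding albumin, stood at 873 to 921 FPKM (fragments scaled to gene length and library size) in the high libraries, against 1953 to 2063 FPKM in the medium libraries. The lowest of the 10 was TTR, encoding transthyretin, at 7.82 to 9.30 FPKM in high and 8.92 to 10.4 FPKM in medium butyrate. The high libraries held 43917285 to 47320903 counts and the medium libraries 39344307 to 50162494. No library of either group was a copy of another: their counts gave a chi-square of 8.03 to 21.2 per gene within the high group and 6.74 to 23.9 within the medium group. Mitochondrially encoded genes held 12.7% ± 1.21 of all counts in high and 10.0% ± 1.10 in medium butyrate (SD, n = 3 each). That difference gave p = 0.1 in a two-sided exact permutation test, the smallest p that 3 against 3 libraries allow. On the first principal component, with 67.1% of the variance, the low libraries lay between 21.8 and 25.7, the medium libraries between 28.4 and 35.6 and the high libraries between 128 and 129.

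A set of 29 genes split the palmitate libraries against their label. These genes had at least 1 CPM (counts scaled to library size) in palmitate library 1 and at least 8-fold less in palmitate libraries 2 and 3, and 0 genes did the reverse. Their summed level was 1.42 and 1.46 CPM in palmitate libraries 2 and 3, and 66.5 to 115.6 CPM in palmitate library 1 and all control, low and medium libraries. In the contrast of interest the high libraries stood at 10.8 to 11.9 CPM, against 96.2 to 115.6 CPM in the medium libraries. They include VIM (the filament protein vimentin of mesenchymal cells), MSN (moesin), EMP1, the adhesion receptor gene CD44 and the keratin gene KRT7. Of the 29, 26 were lower in high than in medium butyrate, 0 were higher, and LAMB3, CAV1 and FAM167A were not called. That fit includes the palmitate libraries. With only the high and medium libraries in edgeR's fit, LAMB3 (adjusted p = 2.80e-05) and FAM167A (adjusted p = 9.10e-04) were called. Leaving the 29 genes out of the fit gave 11306 calls between high and medium butyrate, against 11291 with them, in an alternative added after seeing the data. Each gene list below that holds any is also counted without them.

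**Figure D1:**
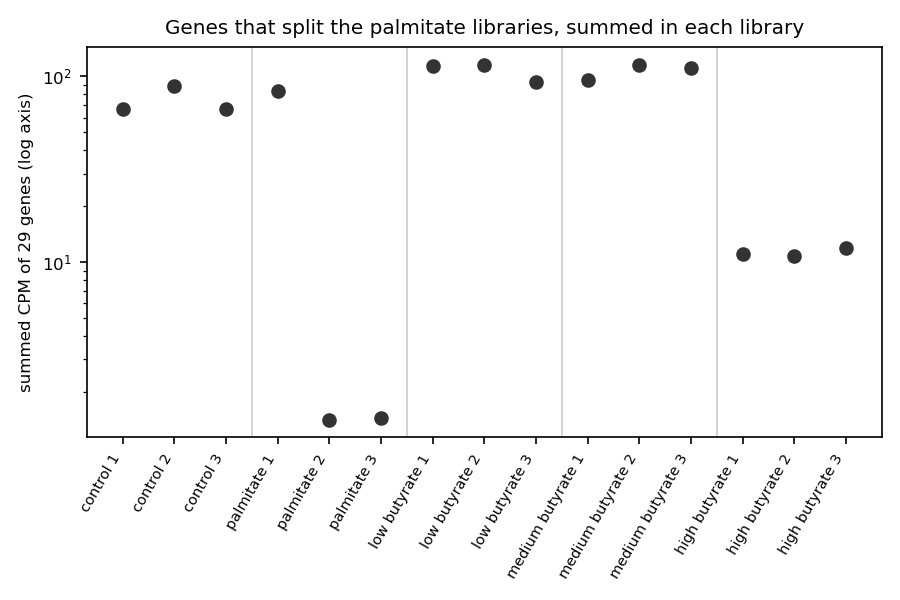
Summed level of the 29 genes that split the palmitate libraries, in CPM on a log axis, with 1 point per library. Palmitate libraries 2 and 3 lie at 1.42 and 1.46 CPM, the high butyrate libraries at 10.8 to 11.9 CPM and all others at 66.5 CPM or more.

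Between high and medium butyrate, 11291 genes were called, 55.6% of those tested, at an adjusted p under 0.05. Of these, 5472 were higher in high butyrate (26.9% of genes tested) and 5819 were lower (28.7%). Each adjusted p below comes from edgeR's quasi-likelihood test, corrected over all 20309 genes by the Benjamini-Hochberg method with 3 libraries a group. It measures only the spread between libraries within groups, estimated over all 15 libraries. A change of at least 2-fold was reached by 2251 of the higher and 1518 of the lower genes, and of at least 4-fold by 791 and 295. At 63.6% of genes the 3 high libraries did not overlap the 3 medium libraries. Which direction held the majority rests on the scaling: rises were 48.5% of the calls here, 51.5% with DESeq2, 55.1% when libraries were scaled by their totals alone and 57.5% on FPKM with a pseudocount of 1.

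The lower dose step of the same size, 1 against 0.5 mM, gave 0 calls with edgeR (0% of genes tested). An unadjusted p under 0.05 was found at 490 of 20309 genes, a share that is itself below 0.05. DESeq2 also gave 0. At 8.15% of genes the medium and low libraries did not overlap, below the share of 0.1 that a random split of 6 libraries gives. The median size of the log2 change was 0.48 between high and medium butyrate, and 0.0803 between medium and low butyrate. A log2 change of at least 0.5 in either direction, called or not, was seen at 48.3% of genes between high and medium butyrate and at 10.1% between medium and low butyrate. The difference between the steps was tested directly as high minus medium less medium minus low. By that test 6415 genes were called (31.6% of genes tested), 2635 with the upper step more positive and 3780 with it more negative. That balance turns on FPKM with a pseudocount of 1, where 4125 of 7169 calls were positive. Both steps use the medium libraries, so a deviation in these would move them in opposite directions.

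**Figure D2:**
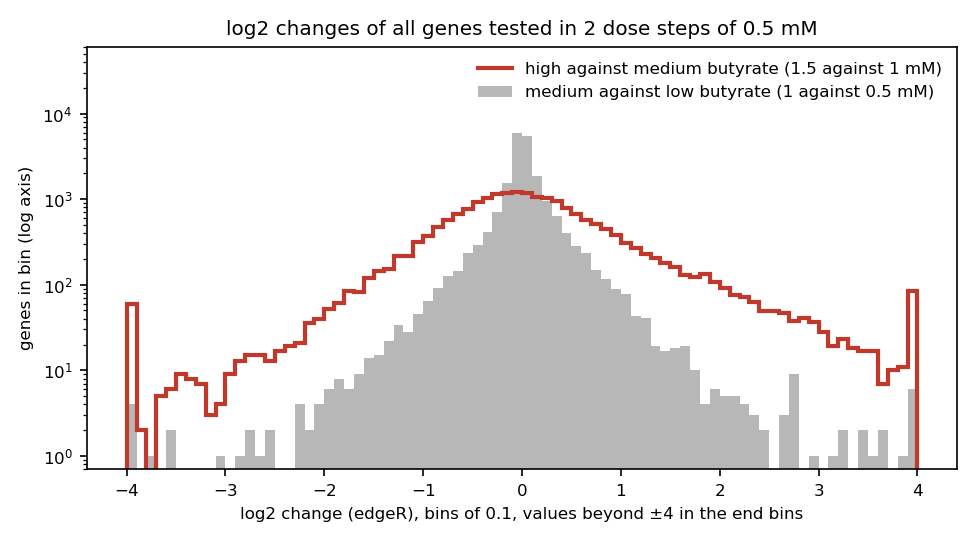
Number of genes, on a log axis, by log2 change in bins of 0.1, for high against medium butyrate (red line) and for medium against low butyrate (grey area). The median size of the change was 0.48 in the upper step and 0.0803 in the lower step.

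The largest rises were taken among called genes with an average of at least 2 on the log2 CPM scale and groups that do not overlap. CRISPLD2 and SYT11 led them, both near 1 or 2 CPM at medium butyrate. CRISPLD2 (ENSG00000103196, chromosome 16, 84819984 to 84920768 on GRCh38 by GENCODE 29), encoding a secreted cysteine-rich protein, had 18.3, 16.6 and 17.8 CPM in the high libraries, against 1.41, 1.40 and 0.767 CPM in the medium libraries. The lowest high library thus lay far above the highest medium library. CRISPLD2 rose 14.7-fold (log2 change 3.88, SE 0.219, adjusted p = 3.83e-12). SYT11 (ENSG00000132718, chromosome 1, 155859509 to 155885199), a synaptotagmin of vesicle traffic, had 21.5, 21.9 and 18.6 CPM in the high libraries and 1.53, 1.77 and 1.58 CPM in the medium libraries. Its groups were also far apart, and SYT11 rose 12.6-fold (log2 change 3.66, SE 0.137, adjusted p = 9.80e-15).

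The 300 bases around the start of these genes are shown because these 2 genes had the largest rises under those conditions. They run from 250 bases before to 50 bases after the RefSeq start on GRCh38.p14. The CRISPLD2 window is chr16:84819735-84820034, plus strand, and the SYT11 window is chr1:155859317-155859616, plus strand.
CRISPLD2: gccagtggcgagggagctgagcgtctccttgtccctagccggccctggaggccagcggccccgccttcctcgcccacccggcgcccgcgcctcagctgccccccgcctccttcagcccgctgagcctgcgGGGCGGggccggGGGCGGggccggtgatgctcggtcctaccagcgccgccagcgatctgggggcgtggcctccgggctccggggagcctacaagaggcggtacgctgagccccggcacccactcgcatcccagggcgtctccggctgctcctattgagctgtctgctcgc
SYT11: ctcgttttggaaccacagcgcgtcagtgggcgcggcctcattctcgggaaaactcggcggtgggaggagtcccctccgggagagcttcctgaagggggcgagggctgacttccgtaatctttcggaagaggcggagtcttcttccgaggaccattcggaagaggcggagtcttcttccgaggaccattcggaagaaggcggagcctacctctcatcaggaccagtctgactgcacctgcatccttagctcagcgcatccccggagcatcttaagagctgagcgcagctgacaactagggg
Capitals mark matches, on either strand, to any of 6 motifs: the GC box GGGCGG, the CCAAT box CCAAT, the CHR element TTTGAA, the E box CACGTG, the AP-1 site TGANTCA and the TATA box TATAAA. The CRISPLD2 window holds 2 GC boxes, which 44.6% of all 27305 RefSeq windows of this length also hold at least once, and the SYT11 window holds no match to the 6.

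Other large rises were of unrelated functions. TCN2, which carries vitamin B12 in blood, had 44.7, 49.5 and 47.9 CPM in the high libraries, against 4.55, 6.18 and 4.40 CPM in the medium libraries. TCN2 rose 9.35-fold (log2 change 3.22, SE 0.111, adjusted p = 3.40e-15), and 7.88% of its exon bases overlap PES1, which has 11.7 times its counts, so some of its reads could belong to that gene. EGR1, a zinc-finger transcription factor that switches on within minutes of growth signals, had 107, 106 and 82.6 CPM in high and 11.1, 12.7 and 11.3 CPM in medium libraries. Both genes had every high library above every medium library, and EGR1 rose 8.41-fold (log2 change 3.07, SE 0.125, adjusted p = 2.91e-14). PHOSPHO1, a phosphatase of bone mineralisation, rose 8.98-fold to 26.0 ± 0.411 CPM in high, against 2.89 ± 0.571 CPM in medium butyrate (mean ± SD here and below, n = 3 each). ATP1B2, a beta subunit of the sodium pump, rose 8.28-fold to 27.9 ± 4.36 CPM, against 3.37 ± 0.297 CPM. The long noncoding RNA LINC02204 rose 10.5-fold, the pseudogene DPY19L2P2 10.2-fold, the gap junction gene GJD3 8.33-fold and BMERB1 7.82-fold. BMERB1 shares 1.38% of its exon bases with MARF1, which has 11.8 times its counts.

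Under the same conditions the 3 largest falls were VIM, MSN and EMP1, which belong to the 29 genes that split the palmitate libraries. VIM had 0.111, 0.120 and 0.0806 CPM in the high libraries and 8.92, 12.2 and 11.53 CPM in the medium libraries (log2 change -6.68, SE 1.05, adjusted p = 1.45e-05). MSN (adjusted p = 2.33e-05) and EMP1 (adjusted p = 3.55e-05) were likewise under 0.25 CPM in every high library and over 10 CPM in every medium library, and DESeq2 gave no adjusted p for either. The falls that follow in size did not belong to that set. LINC00513 (ENSG00000233559, chromosome 7, 130853720 to 130928649), a long noncoding RNA, had 1.14, 1.12 and 2.00 CPM in high and 15.8, 19.5 and 18.3 CPM in medium libraries and fell 12.6-fold (log2 change -3.65, SE 0.153, adjusted p = 4.39e-14). SLC26A9 (ENSG00000174502, chromosome 1, 205913048 to 205943460), a chloride transporter of epithelia, had 1.603, 1.46 and 1.57 CPM in high and 18.3, 18.7 and 19.9 CPM in medium libraries. Neither gene had overlapping groups, and SLC26A9 fell 12.3-fold (log2 change -3.62, SE 0.115, adjusted p = 1.36e-15).

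The windows of these falls are shown in the same way, VIM, MSN and EMP1 having been passed over after their values were seen. The LINC00513 window is chr7:130913214-130913513, plus strand, at a RefSeq start that lies inside the longer GENCODE 29 gene, and the SLC26A9 window is chr1:205943407-205943706, minus strand.
LINC00513: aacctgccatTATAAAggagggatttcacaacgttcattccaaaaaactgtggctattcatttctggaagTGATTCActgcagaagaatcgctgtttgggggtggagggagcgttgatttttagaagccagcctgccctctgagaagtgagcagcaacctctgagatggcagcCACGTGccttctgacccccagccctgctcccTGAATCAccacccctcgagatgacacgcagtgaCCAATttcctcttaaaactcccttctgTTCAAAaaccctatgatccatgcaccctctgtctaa
SLC26A9: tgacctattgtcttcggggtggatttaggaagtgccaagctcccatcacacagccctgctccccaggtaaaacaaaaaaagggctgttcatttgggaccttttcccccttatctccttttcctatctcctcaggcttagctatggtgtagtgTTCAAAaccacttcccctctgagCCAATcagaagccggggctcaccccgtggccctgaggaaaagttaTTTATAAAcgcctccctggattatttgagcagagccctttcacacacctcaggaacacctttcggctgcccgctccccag
Each holds 1 CCAAT box (35.7% of all windows), 1 CHR element (15.4%) and the TATA box (11.95%), which in SLC26A9 matches on both strands in overlapping letters. LINC00513 also holds 2 AP-1 sites (7.76%) and 1 E box (7.43%). These are letter matches only.

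LINC00261, a long noncoding RNA encoded beside FOXA2, had 8.19, 7.52 and 7.72 CPM in the high libraries and 92.4, 82.4 and 95.2 CPM in the medium libraries. It fell 11.53-fold (log2 change -3.53, SE 0.0804, adjusted p = 7.51e-18), and its groups did not overlap. LGI1, a secreted protein best known from neurons, fell 10.4-fold to 7.28 ± 0.380 CPM, against 75.5 ± 1.09 CPM. DGKK, a diacylglycerol kinase, fell 10.8-fold, PLA2G2E, a secreted phospholipase, 10.0-fold, and IL1RN, the interleukin-1 receptor antagonist, 8.23-fold to 0.923 ± 0.263 CPM, against 7.57 ± 0.904 CPM.

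**Figure D3:**
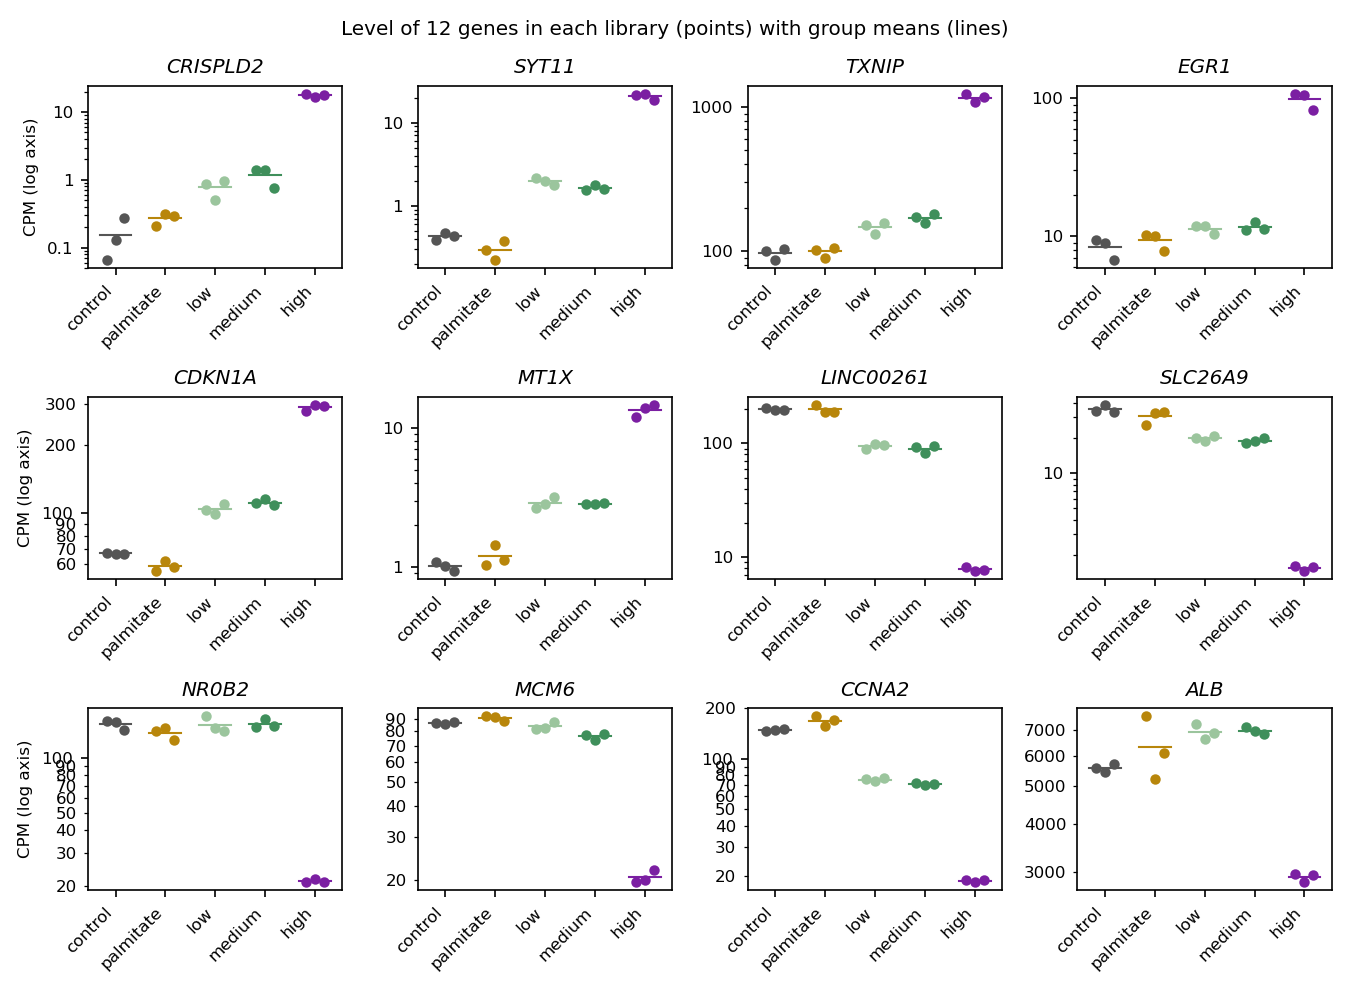
CPM on a log axis of 12 genes in each of the 15 libraries (points), with group means (lines), ordered from control over palmitate to high butyrate. In each panel the 3 high butyrate libraries lie apart from the 3 medium libraries, as for CRISPLD2 with 18.3, 16.6 and 17.8 CPM in high and 1.41, 1.40 and 0.767 CPM in medium butyrate.

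Genes known to respond to deacetylase inhibitors moved mostly upward: 16 of 22 tested rose and 3 fell, where 26.9% of all genes rose. Their median log2 change was 0.81, against 0.01 over all genes tested. The list had 14 rises and 2 falls between low butyrate and palmitate, and it was chosen with earlier results known, so its direction is not independent evidence. CDKN1A, the cell cycle inhibitor p21, had 282, 298 and 296 CPM in the high libraries and 111, 115 and 108 CPM in the medium libraries. The groups did not overlap, and CDKN1A rose 2.62-fold (log2 change 1.39, SE 0.0599, adjusted p = 6.43e-14).

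The deacetylases themselves moved both ways. Of 23 deacetylase and corepressor genes 8 rose and 10 fell (median -0.13), and the majority turns with DESeq2 (10 and 9). HDAC3, the catalytic subunit of the NCOR complexes, had 109.6, 106 and 101 CPM in the high libraries and 54.7, 56.6 and 56.0 CPM in the medium libraries. It rose 1.89-fold without overlap (log2 change 0.92, SE 0.0595, adjusted p = 3.15e-11). HDAC1 rose 1.19-fold to 195 ± 4.63 CPM, against 164 ± 3.46 CPM, while its partner HDAC2 fell 1.33-fold to 139.7 ± 1.12 CPM, against 186 ± 12.01 CPM. HDAC11 rose 1.28-fold (adjusted p = 3.91e-04), HDAC7 fell 2.08-fold and MTA1, of the NuRD complex, fell 1.89-fold. Writers and readers of acetyl marks rose in 3 of 16 and fell in 10 (median -0.28), counts that were level (4 each) on FPKM with a pseudocount of 0.1. NCOA2 fell 1.65-fold, BRD3 1.46-fold and KAT2A 1.36-fold. Replication-independent histones and their chaperones rose in 3 of 16 and fell in 10 (median -0.33), among them CHAF1A of the chromatin assembly factor (2.68-fold lower), the variant histone gene H2AZ1 (2.57-fold) and MACROH2A2 (2.08-fold).

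Genes of cell division fell nearly as a whole. Of 36 DNA replication genes 35 were lower in high butyrate and 0 higher, with a median log2 change of -1.25. Of 39 genes of mitosis and the spindle 37 were lower and 0 higher, with a median of -1.18. Over all genes tested 28.7% were lower, and 53.3% of those with at least 64 CPM in control. MCM6 (chromosome 2, 135839626 to 135876426), a subunit of the replicative helicase, had 19.6, 19.99 and 22.1 CPM in the high libraries and 77.5, 74.1 and 78.3 CPM in the medium libraries. Its groups lay far apart, and MCM6 fell 3.73-fold (log2 change -1.90, SE 0.0624, adjusted p = 1.85e-15). CCNA2 (chromosome 4, 121816444 to 121823933), the cyclin that drives S phase, had 19.0, 18.4 and 18.9 CPM in the high libraries and 71.9, 69.7 and 71.0 CPM in the medium libraries. CCNA2 fell 3.77-fold without overlap (log2 change -1.92, SE 0.0621, adjusted p = 1.60e-15).

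The other replication genes named had falls of like size. CDC45, a partner of that helicase, fell 3.76-fold, MCM7 2.90-fold and TYMS, the thymidylate synthase, 3.63-fold, although 46.6% of the exon bases of TYMS overlap ENOSF1 and TYMSOS. MAD2L1 of the spindle checkpoint fell 4.56-fold to 12.4 ± 0.959 CPM, against 56.8 ± 0.761 CPM, and the mitotic kinase gene AURKA 3.34-fold to 53.2 ± 1.46 CPM, against 178 ± 11.2 CPM. The proliferation marker MKI67 had 245, 192 and 220.3 CPM in high and 544, 495 and 556 CPM in medium libraries and fell 2.42-fold (log2 change -1.28, SE 0.0991, adjusted p = 5.32e-10). Summed over the list, replication transcripts made up 1913 to 2003 CPM of the library total in high and 3809.7 to 3888 in medium butyrate. In bulk RNA, fewer dividing cells and less of these transcripts per dividing cell cannot be told apart.

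Part of this fall was already present at 0.5 mM, set against palmitate alone. By the library names these groups also differ in palmitate time. Between low butyrate and palmitate, 26 replication genes were lower and 2 higher, and 33 mitosis genes were lower and 0 higher, where 24% of all genes tested were lower. In the test of the difference between dose steps, 33 of 36 replication and 36 of 39 mitosis genes fell more in the upper step, where 18.6% of all genes did. MCM6 changed by -0.11 on the log2 scale between low butyrate and palmitate (adjusted p = 0.135) and by -1.90 between high and medium butyrate. CCNA2 changed by -1.16 (adjusted p = 1.10e-12) and by -1.92.

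The windows at the starts of MCM6 and CCNA2 are shown because these genes had the smallest adjusted p of their lists. They were chosen after the values were seen. The MCM6 window is chr2:135876394-135876693, minus strand, and the CCNA2 window is chr4:121823834-121824133, minus strand.
MCM6: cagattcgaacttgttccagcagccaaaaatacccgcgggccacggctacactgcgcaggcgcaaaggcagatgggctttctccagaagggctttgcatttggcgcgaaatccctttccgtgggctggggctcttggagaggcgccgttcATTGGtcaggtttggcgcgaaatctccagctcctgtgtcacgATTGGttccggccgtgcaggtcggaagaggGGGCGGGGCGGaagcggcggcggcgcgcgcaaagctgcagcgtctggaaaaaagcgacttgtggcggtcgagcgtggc
CCNA2: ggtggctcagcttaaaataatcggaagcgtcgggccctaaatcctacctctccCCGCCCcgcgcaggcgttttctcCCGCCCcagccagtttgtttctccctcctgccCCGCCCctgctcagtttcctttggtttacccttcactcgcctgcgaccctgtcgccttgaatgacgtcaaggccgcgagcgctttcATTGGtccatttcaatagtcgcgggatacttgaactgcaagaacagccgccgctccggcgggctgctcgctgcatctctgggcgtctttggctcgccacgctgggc
The MCM6 window holds 2 GC boxes, sharing a base, and 2 CCAAT boxes, and the CCNA2 window holds 3 GC boxes and 1 CCAAT box. Of the 72 replication and mitosis genes called lower, 60 had a window. A CCAAT box was found in 41 of these (68.3%), against 35.7% of all windows, a GC box in 43 (71.7% against 44.6%) and a CHR element in 21 (35% against 15.4%). The windows had a median GC content of 63%, against 58.3% for all. All 27305 windows include those of genes that were not tested here, and they are not matched to these lists in level or function. These shares describe the letters, and no test was made.

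Regulators of the G1 phase moved in both directions, 6 rising and 15 falling of 25 (median -0.46). Among all genes tested 26.9% rose and 28.7% fell, and 53.3% fell of those with at least 64 CPM in control. E2F1, the transcription factor that opens S phase, had 21.6, 21.2 and 22.4 CPM in the high libraries and 91.6, 91.7 and 95.0 CPM in the medium libraries. All high libraries lay below all medium libraries, and E2F1 fell 4.28-fold (log2 change -2.10, SE 0.0593, adjusted p = 2.85e-16). E2F7 fell 4.85-fold, and CCND1, encoding cyclin D1, fell 1.45-fold to 199 ± 1.30 CPM, against 289 ± 8.44 CPM. Targets of p53 rose in 8 of 25 and fell in 10, with a median of -0.01 whose sign turns with the scaling. SESN2, a stress-induced sestrin, rose 2.20-fold, TP53INP1 rose 2.15-fold, and the death receptor gene FAS fell 3.28-fold to 1.95 ± 0.0467 CPM, against 6.39 ± 0.918 CPM. Apoptosis regulators rose in 7 of 23 and fell in 10 (median 0.03), a majority that turned (9 and 8) when libraries were scaled by totals alone. The cell death gene BIK rose 4.50-fold to 27.8 ± 3.97 CPM, against 6.18 ± 0.485 CPM. Its relative BID fell 3.98-fold to 4.74 ± 0.418 CPM, against 18.9 ± 1.51 CPM, and CFLAR, which blocks caspase-8, fell 2.06-fold.

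Liver-typical genes fell more often than they rose. Of 37 secreted hepatocyte products 24 fell and 5 rose (median log2 change -0.58), and of 21 hepatocyte transcription factors and their neighbours 13 fell and 5 rose (median -0.71). Falls made up 28.7% of all genes tested, and 53.3% of those with at least 64 CPM in control. NR0B2, the nuclear receptor SHP that represses bile acid synthesis, had 20.9, 21.6 and 21.0 CPM in the high libraries and 146, 162 and 148 CPM in the medium libraries. The groups lay far apart with little spread, and NR0B2 fell 7.18-fold (log2 change -2.84, SE 0.0828, adjusted p = 3.35e-16). FOXA2, a pioneer factor of liver, had 16.7, 14.8 and 15.4 CPM in high and 44.4, 44.3 and 45.8 CPM in medium libraries and fell 2.87-fold (log2 change -1.52, SE 0.0661, adjusted p = 7.19e-14). HNF4A, the central factor of hepatocyte identity, had 254, 250.2 and 253 CPM in high and 270.4, 268 and 253 CPM in medium libraries and was not called (log2 change -0.06, SE 0.0684, adjusted p = 0.443). The groups of HNF4A overlapped.

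Among the secreted products, ALB had 2961, 2826 and 2957 CPM in the high libraries and 7114, 6954 and 6807 CPM in the medium libraries. ALB fell 2.39-fold without overlap (log2 change -1.26, SE 0.0961, adjusted p = 4.35e-10), and it had not been called between low butyrate and palmitate (log2 change 0.13, adjusted p = 0.269). AFP, the fetal albumin relative, fell 2.04-fold, APOA2 2.54-fold, RBP4, the retinol carrier, 2.30-fold, and CP, encoding ceruloplasmin, 3.93-fold to 19.5 ± 2.04 CPM, against 76.7 ± 7.49 CPM. Other hepatocyte products were called higher, among them the fibrinogen genes FGB (log2 change 0.29) and FGA, whose values are given below. APOA1 was also 1.19-fold higher (adjusted p = 0.0177). That call ended without high library 2 (adjusted p = 0.0888), high library 3 (0.0729) or medium library 3 (0.0919). Cytochrome P450 and conjugation genes fell in 13 of 25 and rose in 5 (12 without the 1 gene of the palmitate split, median -0.54). Beside this, 28.7% of all genes tested fell and 26.9% rose. CYP27A1 of bile acid synthesis fell 2.26-fold, CYP24A1, which degrades vitamin D, fell 2.02-fold, and the omega-hydroxylase gene CYP4F2 rose 3.09-fold to 89.6 ± 2.19 CPM, against 29.04 ± 2.05 CPM. Genes of the urea cycle and amino acid breakdown rose in 9 of 30 and fell in 11 (median 0.12). BHMT, which remethylates homocysteine, rose 3.65-fold to 166 ± 24.6 CPM, against 45.6 ± 8.07 CPM, OAT rose 1.86-fold and HPD of tyrosine breakdown fell 2.02-fold.

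In lipid metabolism the sterol branch fell and the fatty acid branch was mixed. Of 24 cholesterol synthesis genes 20 fell and 2 rose (median log2 change -0.58), where 28.7% of all genes tested fell and 53.3% of those with at least 64 CPM in control. In this list 18 genes fell more in the upper than in the lower dose step. HMGCS1, at the entry of the pathway, had 172, 149 and 179 CPM in the high libraries and 446, 428 and 479.6 CPM in the medium libraries. It fell 2.71-fold without overlap (log2 change -1.44, SE 0.0760, adjusted p = 1.44e-12). FDPS, which makes farnesyl diphosphate, fell 2.36-fold and ACAT2 3.41-fold, with 43.1% of the exon bases of ACAT2 overlapping TCP1 and SOD2-OT1.

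Of 23 genes of fatty acid synthesis 7 rose and 6 fell (median 0.01), where 26.9% of all genes tested rose and 28.7% fell. FASN, the fatty acid synthase, had 5153, 5014 and 5342 CPM in the high libraries and 5166, 5123 and 4931 CPM in the medium libraries. The groups overlapped and FASN was not called (log2 change 0.03, SE 0.122, adjusted p = 0.867). ELOVL6, a fatty acid elongase, had 62.3, 61.7 and 59.4 CPM in high and 180.3, 175 and 203 CPM in medium libraries and fell 3.05-fold (log2 change -1.61, SE 0.0763, adjusted p = 2.69e-13). FADS2, the delta-6 desaturase, fell 2.71-fold to 96.1 ± 1.55 CPM, against 260.1 ± 7.65 CPM. SCD, the delta-9 desaturase, was 1.19-fold higher (adjusted p = 0.0102), a call that ended without high library 1 (adjusted p = 0.0704) or medium library 2 (0.0545). ACSL1, which activates fatty acids, rose 2.07-fold to 64.5 ± 2.75 CPM, against 31.1 ± 0.672 CPM.

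Of 24 genes of triglyceride, lipid droplets and lipoproteins 10 rose and 7 fell (5 without the 2 genes of the palmitate split, median 0.19). The shares over all genes tested were 26.9% higher and 28.7% lower. PLIN5, a droplet coat protein that tethers droplets to mitochondria, had 21.5, 23.6 and 25.9 CPM in the high libraries and 3.17, 3.304 and 2.84 CPM in the medium libraries. PLIN5 rose 7.62-fold without overlap (log2 change 2.93, SE 0.189, adjusted p = 2.97e-11). PLIN4 rose 2.66-fold and PNPLA3, a lipase whose gene is linked to fatty liver, fell 2.34-fold to 14.3 ± 1.61 CPM, against 33.4 ± 1.21 CPM. PLIN2, the main coat protein of hepatocyte droplets, had 1008, 1002 and 999 CPM in high and 978, 970.1 and 710.4 CPM in medium libraries and was not called (adjusted p = 0.188), with medium library 3 below all others. Fatty acid oxidation and ketone genes rose in 7 of 27 and fell in 11 (median -0.10), with ETFDH 1.91-fold higher, ETFB 1.73-fold lower and HADH 1.74-fold lower. CPT1A, which admits fatty acids to mitochondria, was not called (log2 change -0.07, SE 0.0672, adjusted p = 0.38).

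Genes that take up, activate or sense butyrate itself rose in 3 of 13 and fell in 5 (median -0.10). Over all genes tested 26.9% rose and 28.7% fell. ACSS1, a mitochondrial synthetase for short-chain acids, had 61.2, 59.7 and 60.1 CPM in the high libraries and 132, 133 and 130.0 CPM in the medium libraries. It fell 2.18-fold (log2 change -1.12, SE 0.0607, adjusted p = 1.98e-12), after a rise between low butyrate and palmitate (log2 change 1.45, adjusted p = 8.87e-14). ACSS3 fell 1.86-fold and the efflux pump gene ABCG2 fell 2.01-fold.

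Genes of glucose handling moved both ways around a large rise of TXNIP. For the counts here, the shares over all genes tested were 26.9% higher and 28.7% lower. TXNIP (chromosome 1, 145992435 to 145996600), which binds thioredoxin and limits glucose uptake, had 1227, 1088 and 1177 CPM in the high libraries and 173, 157 and 180.5 CPM in the medium libraries. Every high library was far above every medium library, and TXNIP rose 6.85-fold (log2 change 2.78, SE 0.0903, adjusted p = 1.60e-15). Of 30 glycolysis and glucose uptake genes 11 rose and 12 fell, with a median of -0.08 whose sign turns on FPKM. ALDOA rose 2.53-fold, and PKLR, the liver pyruvate kinase, fell 3.23-fold to 8.22 ± 0.878 CPM, against 26.5 ± 1.99 CPM. Gluconeogenesis and glycogen genes rose in 7 of 20 and fell in 4 (median 0.03). CREB3L3, a liver transcription factor of fasting, rose 2.14-fold, PCK1, the cytosolic enzyme of the committed step, rose 1.86-fold to 3.41 ± 0.271 CPM, against 1.84 ± 0.427 CPM, and the mitochondrial form PCK2 fell 1.47-fold. PGM1, which links glycogen and glycolysis, fell 3.03-fold to 14.0 ± 0.741 CPM, against 42.4 ± 2.54 CPM. G6PC1, the glucose-releasing phosphatase, had 0.712, 0.917 and 0.867 CPM in high and 1.02, 0.865 and 0.651 CPM in medium libraries and was not called (adjusted p = 0.965).

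Insulin signalling genes rose in 13 of 39 and fell in 13 (median 0.12), a tie that became 15 and 12 with DESeq2. Beside this tie, 26.9% of all genes tested rose and 28.7% fell. The insulin receptor gene INSR had 44.2, 42.4 and 49.1 CPM in the high libraries and 65.3, 60.7 and 55.4 CPM in the medium libraries. INSR fell 1.34-fold without overlap (log2 change -0.42, SE 0.0910, adjusted p = 5.09e-04). IRS1, the adaptor below the receptor, had 92.4, 84.1 and 88.4 CPM in high and 143, 139 and 151 CPM in medium libraries and fell 1.63-fold (log2 change -0.71, SE 0.0805, adjusted p = 1.69e-07), whereas IRS2 was not called (adjusted p = 0.607). TRIB3, a pseudokinase that restrains AKT, had 25.1, 26.6 and 27.0 CPM in high and 96.8, 94.6 and 83.8 CPM in medium libraries. All 3 high libraries of TRIB3 were well below the medium libraries, and it fell 3.499-fold (log2 change -1.81, SE 0.0687, adjusted p = 1.11e-14). PIK3R3, a regulatory subunit of PI3 kinase, rose 2.21-fold, and INPPL1, a phosphatase that opposes it, fell 2.22-fold. IGFBP1, whose secreted protein binds insulin-like growth factors and which insulin represses, had 64.4, 51.5 and 63.8 CPM in high and 462, 439 and 256 CPM in medium libraries. The medium libraries of IGFBP1 differed among themselves but none came near the high libraries, and it fell 6.44-fold (log2 change -2.69, SE 0.212, adjusted p = 6.91e-10).

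Stress pathways fell in part and rose in part. Of 24 genes of endoplasmic reticulum stress 19 fell and 4 rose (median log2 change -0.46), whereas 10 rose and 4 fell between low butyrate and palmitate. HSPA5, the lumenal chaperone BiP, had 1003, 919 and 911 CPM in the high libraries and 1972, 1764 and 1878 CPM in the medium libraries. It fell 1.98-fold without overlap (log2 change -0.99, SE 0.0773, adjusted p = 6.16e-10), MANF fell 2.75-fold and the disulfide isomerase gene PDIA4 1.86-fold. ATF4 and amino acid response genes rose in 9 of 34 and fell in 18 (median -0.24), among them SLC7A1, an arginine transporter, 2.05-fold lower. DDIT3, encoding CHOP, was not called (adjusted p = 0.0513, but 0.0262 with DESeq2). ASNS was 1.40-fold lower (adjusted p = 0.0363), a call that ended with DESeq2 (0.062) and with library totals alone (0.0791), and both genes share many exon bases with neighbours. Chaperones rose in 3 of 26 and fell in 16 (median -0.36): HSPA8 fell 2.13-fold, HSPH1 2.06-fold and DNAJB1, a heat-inducible member, rose 1.79-fold. Proteasome genes rose in 3 of 30 and fell in 16 (median -0.22), among them PSMC3 (1.74-fold lower), PSMB5 (1.72-fold) and PSMD7 (1.51-fold). Beside these counts, 28.7% of all genes tested fell, and 53.3% of those with at least 64 CPM in control.

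Metallothioneins, which bind zinc and copper, rose in 9 of 10 and fell in 0, with a median log2 change of 1.39, where 26.9% of all genes rose. MT2A had 331, 432 and 388 CPM in the high libraries and 127, 159 and 118 CPM in the medium libraries. No high library of MT2A reached down to the medium range, and it rose 2.85-fold (log2 change 1.51, SE 0.107, adjusted p = 1.32e-10). MT1X rose 4.70-fold to 13.4 ± 1.26 CPM, against 2.85 ± 0.0125 CPM, MT1G 2.41-fold and MT1E 2.25-fold. Metallothionein genes are close copies of each other, so reads could be split among them. Of 10 members 7 were also higher between low butyrate and palmitate, and 8 rose more in the upper than in the lower dose step. NRF2 and antioxidant genes rose in 11 of 30 and fell in 11 (median 0.03): HMOX1, which breaks down heme, rose 2.12-fold to 90.8 ± 5.86 CPM, against 42.9 ± 1.64 CPM, and AKR1B10 fell 3.14-fold to 29.3 ± 1.18 CPM, against 92.2 ± 10.4 CPM. The export pumps ABCC2 and ABCC3 fell 2.38-fold and 2.53-fold.

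Lysosome and autophagy genes rose in 18 of 32 and fell in 4 (median 0.22), where 26.9% of all genes rose. ATP6V0D1, a subunit of the proton pump that acidifies lysosomes, had 72.4, 74.7 and 71.2 CPM in the high libraries and 32.4, 32.4 and 28.999 CPM in the medium libraries. Its groups did not overlap, and it rose 2.33-fold (log2 change 1.22, SE 0.0866, adjusted p = 1.38e-10). ATP6V1B2 rose 1.72-fold and NPC1, which exports cholesterol from lysosomes, rose 2.15-fold to 201 ± 17.5 CPM, against 93.5 ± 3.88 CPM.

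Genes of the ribosome fell more often than they rose. Ribosome biogenesis genes fell in 32 of 39 and rose in 1 (median -0.49), and cytosolic ribosomal protein genes fell in 31 of 50 and rose in 0 (median -0.28). Among all genes with at least 64 CPM in control 53.3% fell. UBTF, which activates the ribosomal RNA genes, had 32.7, 30.2 and 29.6 CPM in the high libraries and 79.0, 69.0 and 91.6 CPM in the medium libraries. UBTF fell 2.59-fold (log2 change -1.37, SE 0.0848, adjusted p = 1.53e-11), UTP20 2.64-fold and DKC1 1.96-fold. The ribosomal protein genes that fell moved little, such as RPSA at 1.50-fold and RPL30 at 1.36-fold lower, and 20 fell on FPKM with a pseudocount of 1. Only 3 ribosomal protein genes had fallen between low butyrate and palmitate, and 4 had risen.

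Most respiratory chain genes of the nucleus were not called. Their share of falls was near the 28.7% of all genes and below the 53.3% of genes with at least 64 CPM in control. Members encoded in the nucleus rose in 6 of 48 and fell in 16 (median -0.11), among them CYC1 (1.85-fold lower), NDUFA6 (1.73-fold) and UQCRFS1 (1.56-fold). Of 13 mitochondrial transcripts 6 rose and 0 fell (median 0.30), with 3 to 10 rising under other scalings and on FPKM. Rises made up 26.9% of all genes tested. MT-CYB had 4201, 3759 and 3512 CPM in the high libraries and 2697, 2472 and 3069 CPM in the medium libraries. It rose 1.39-fold (log2 change 0.48, SE 0.102, adjusted p = 4.16e-04), MT-ND6 rose 1.37-fold and MT-ND5 1.23-fold. The mitochondrial share of all counts differed between the groups as given above, and its part in these rises was not tested.

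Immediate early and AP-1 genes rose in 16 of 24 and fell in 3 (median 0.51), where 26.9% of all genes rose. DUSP1, a phosphatase that switches off MAP kinases, had 42.5, 40.9 and 44.1 CPM in the high libraries and 13.4, 13.4 and 11.05 CPM in the medium libraries. It rose 3.37-fold without overlap (log2 change 1.75, SE 0.103, adjusted p = 7.57e-12). FOSL1, an AP-1 subunit, went the other way, with 3.18, 2.71 and 1.96 CPM in high and 13.9, 14.1 and 16.02 CPM in medium libraries, and fell 5.62-fold (log2 change -2.49, SE 0.148, adjusted p = 8.11e-12). Neither EGR1, DUSP1 nor FOSL1 was called between low butyrate and palmitate (adjusted p = 0.0799, 0.979 and 0.731).

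Immune pathways were mixed. NF-kB and inflammatory genes rose in 3 of 21 and fell in 8 (median -0.22), with the adaptor gene MYD88 3.17-fold and the acute phase gene ORM1 2.75-fold lower and STAT3 1.96-fold higher. ORM1 has a near copy, ORM2, that could share its reads. Interferon response genes rose in 6 of 22 and fell in 6 (median 0.15): IFI6 rose 2.26-fold to 45.4 ± 8.08 CPM, against 20.1 ± 2.21 CPM, IFIT1 rose 2.70-fold and MX2 fell 2.15-fold. Genes of MHC class I presentation rose in 3 of 15 and fell in 8 (median -0.44), or 5 and 8 with DESeq2. Falls included the trimming peptidase genes ERAP1 (1.93-fold lower) and ERAP2 (2.68-fold lower) and the immunoproteasome gene PSMB8 (2.24-fold lower). The summed level of this list was nonetheless higher, at 1135 to 1162 CPM of the library total in high and 914 to 963 in medium butyrate.

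Genes of adhesion, matrix and Wnt or YAP signalling moved both ways. Beside their counts, 26.9% of all genes tested rose and 28.7% fell. Falls reached 53.3% among genes with at least 64 CPM in control. Wnt and YAP targets rose in 7 of 22 and fell in 8 (median -0.08). The Wnt receptor gene LGR5 had 44.6, 48.2 and 46.2 CPM in the high libraries and 104, 108 and 104 CPM in the medium libraries. LGR5 fell 2.27-fold (log2 change -1.18, SE 0.0568, adjusted p = 3.19e-13), YAP1 fell 2.16-fold and NKD1, a Wnt inhibitor, rose 1.75-fold. Adhesion and EMT genes rose in 6 of 29 and fell in 12 (10 without the genes of the palmitate split, median -0.27). SNAI1, a repressor of E-cadherin, rose 2.79-fold to 32.7 ± 3.68 CPM, against 11.7 ± 0.854 CPM, the tight junction gene CLDN1 fell 1.86-fold and the integrin gene ITGA1 fell 2.73-fold. Epithelial keratins rose in 2 of 10 and fell in 2 (1 without KRT7, median 0.22): KRT19 rose 2.47-fold to 735 ± 20.4 CPM, against 298 ± 18.5 CPM, and KRT8 rose 1.28-fold. Collagen and matrix genes rose in 9 of 31 and fell in 16 (14 without the genes of the palmitate split, median -0.37). FBLN2, a matrix glycoprotein, had 42.1, 38.0 and 39.4 CPM in high and 5.42, 5.86 and 5.21 CPM in medium libraries and rose 7.24-fold (log2 change 2.86, SE 0.136, adjusted p = 2.75e-13), whereas COL7A1 fell 2.81-fold and COL9A3 1.97-fold.

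Markers of other cell types moved both ways, where 26.9% of all genes tested rose and 28.7% fell. Stromal, endothelial and immune markers summed to 48.0 to 52.6 CPM in high and 35.7 to 40.0 in medium butyrate. Of the 9 tested, 2 fell (1 without VIM) and 5 rose, such as DES, a muscle filament gene, 4.65-fold (median 0.49). Neuronal markers summed to 228 to 231 in high and 373 to 382 in medium butyrate, with 4 of 13 rising and 4 falling (median 0.11). SYP, a synaptic vesicle protein, rose 3.25-fold, the neurofilament gene NEFH rose 11.6-fold to 5.03 ± 0.270 CPM, against 0.434 ± 0.0894 CPM, and CPLX2 fell 3.16-fold. Muscle and germ line markers summed to 217 to 231 in high and 472 to 544 in medium butyrate, with 4 of 9 rising and 3 falling (median 0.38). TNNI2, a fast-muscle troponin, fell 4.73-fold to 80.8 ± 12.4 CPM, against 382 ± 47.0 CPM, and the muscle creatine kinase gene CKM rose 5.05-fold. Intestinal and skin markers rose in 4 of 7 and fell in 0 (median 0.56), with VIL1 1.47-fold and ALPI 2.07-fold higher, and cholangiocyte markers rose in 2 of 9 and fell in 5 (4 without KRT7, median -0.29), with SPP1 1.75-fold lower and SCTR 3.05-fold higher. Of the markers with a row in the table, 0 had no counts in all 15 libraries.

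**Figure D4:**
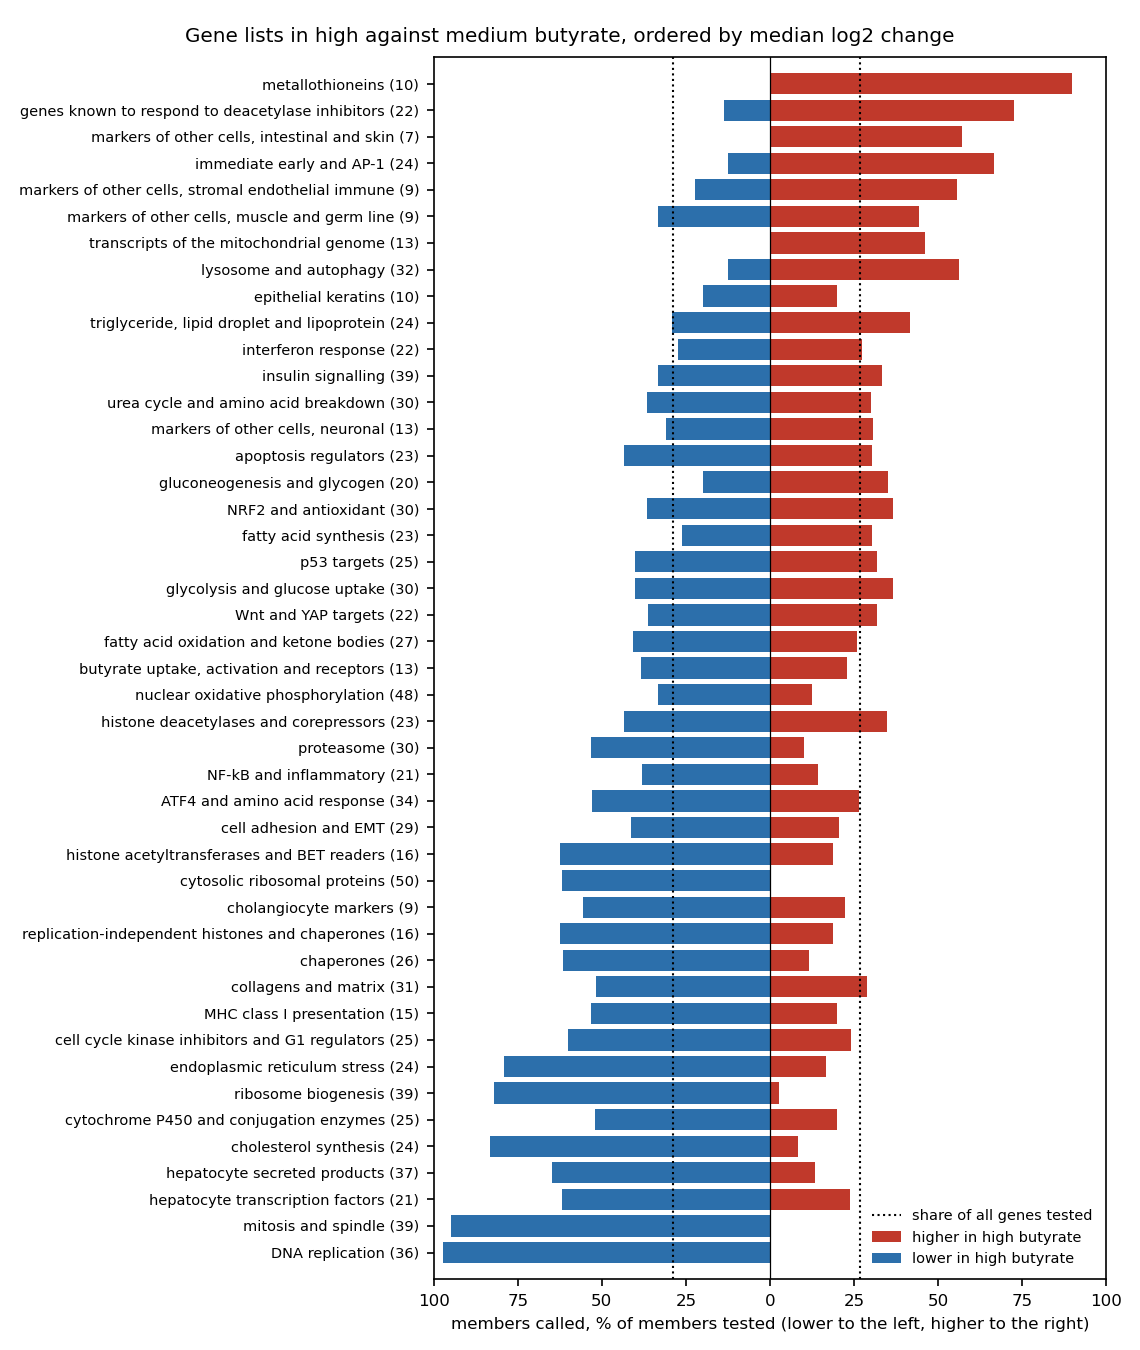
Share of tested members called higher (to the right) or lower (to the left) in high against medium butyrate for 45 gene lists, in percent, with the number tested in brackets. Dotted lines mark the shares of all genes tested, 26.9% higher and 28.7% lower. Replication (35 of 36 lower) and mitosis genes (37 of 39 lower) stand at the bottom and metallothioneins (9 of 10 higher) at the top.

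Falls made up a larger share at higher levels in untreated cells. Of 3266 genes with 0.25 to 1 CPM in control, 713 rose in high against medium butyrate and 313 fell. Of 3218 genes with at least 64 CPM in control, 624 rose and 1714 fell. The share that rose showed no such order over these bins, at 21.8, 26.9, 28.4, 26.7 and 19.4%. Genes under 0.25 CPM in control passed the filter through their counts in other groups, so the 1392 rises and 133 falls among 3765 such genes are partly set by the filter. By the GENCODE 29 gene types, 382 of 1325 long intergenic noncoding RNAs rose (28.8%) and 203 fell (15.3%). Of 1533 antisense RNAs, 376 rose (24.5%) and 169 fell (11.02%). Since 26.9% of all genes tested rose and 28.7% fell, both types differed from all genes more in falls than in rises. Of 14487 protein-coding genes 4216 rose and 5000 fell, and of 1003 processed pseudogenes 78 rose and 179 fell. The strand setting of the counting is not given in the sources used here, so reads of antisense genes and their partners cannot be told apart.

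**Figure D5:**
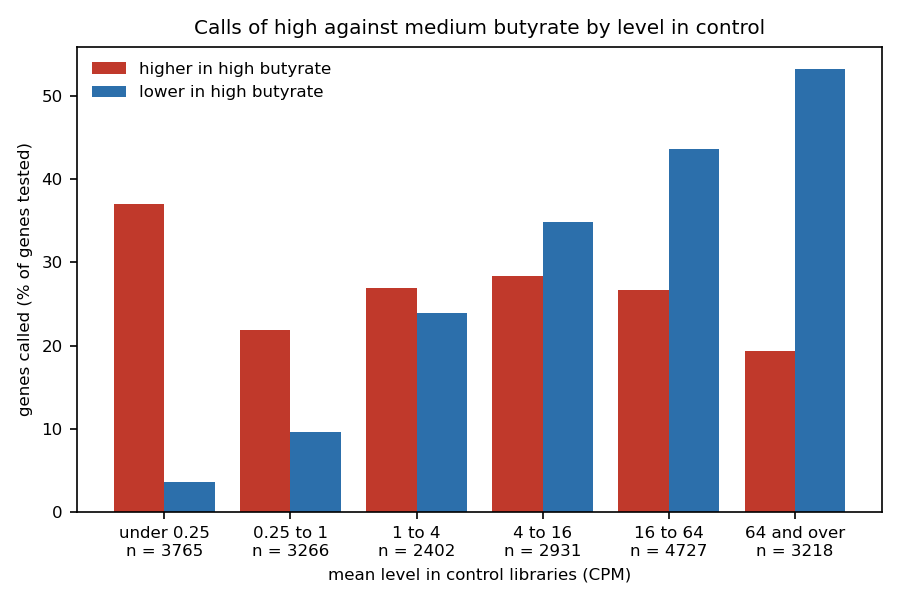
Share of genes called higher (left bar of each pair) or lower (right bar) in high against medium butyrate, in percent of the genes tested, by mean CPM in the control libraries. In the lowest bin, whose genes passed the filter through other groups, 37.0% of genes were higher and 3.53% lower, and in the highest bin 19.4% were higher and 53.3% lower.

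High against medium butyrate was also set beside low butyrate against palmitate, which uses none of the same libraries, although by the library names the groups of the second contrast differ in palmitate time as well. In that contrast 10132 genes were called (49.9% of genes tested), 5261 higher and 4871 lower. Of the 5472 genes that rose between high and medium butyrate, 2535 had also risen with low butyrate, which is 46.3% of the first set and 48.2% of the second, where 25.9% of all genes had risen. Of the 5819 that fell, 2845 had also fallen with low butyrate, which is 48.9% of the first set and 58.4% of the second, where 24.0% of all genes had fallen. A rise after a fall was called for 612 genes, 11.2% of the genes that rose, where 24.0% of all genes had fallen. A fall after a rise was called for 824, 14.2% of the genes that fell, where 25.9% of all genes had risen. Both shares thus lay below those of all genes. Another 2325 rises and 2150 falls were called only between high and medium butyrate, which does not show that low butyrate left them as they were.

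Some genes turned back in the upper step. PLA2G2A, a secreted phospholipase A2, had 49.2, 36.4 and 44.2 CPM in the palmitate libraries, 209, 179 and 179 CPM in the low, 201, 173 and 188 CPM in the medium and 60.6, 57.1 and 51.4 CPM in the high butyrate libraries. It thus was high at low and medium butyrate and near its palmitate level at high butyrate (high against medium: log2 change -1.73, SE 0.0950, adjusted p = 2.47e-12; low against palmitate: log2 change 2.13, adjusted p = 2.31e-13). PLPP2, a lipid phosphatase, fell 2.49-fold in high butyrate after a log2 rise of 2.36 with low butyrate, and SLC51B, a bile acid transporter subunit, fell 2.99-fold after a rise of 1.50. FGA, the fibrinogen alpha chain, had 1249, 1052 and 1029 CPM in the palmitate libraries, 689, 635 and 646 CPM in the low, 671, 699.7 and 659.9 CPM in the medium and 1209, 1347 and 1301 CPM in the high butyrate libraries. FGA went the opposite way, low at low and medium butyrate and back up at high butyrate (high against medium: log2 change 0.93, SE 0.0756, adjusted p = 1.21e-09; low against palmitate: log2 change -0.76, adjusted p = 4.55e-08). ARRDC3 rose 1.94-fold after a log2 change of -0.72, and LYAR rose 1.73-fold after -0.67. These genes were chosen after their values were seen, as those with large changes of opposite sign in both contrasts.

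EEF1A2 and CRABP2 had both risen between low butyrate and palmitate, by 5.98 (adjusted p = 1.65e-17) and 5.41 (adjusted p = 5.26e-15) on the log2 scale, and moved in opposite directions between high and medium butyrate. EEF1A2, a translation factor found mainly in nerve and muscle, had 33.3, 36.9 and 33.9 CPM in the high libraries and 69.5, 68.4 and 67.4 CPM in the medium libraries and fell 1.97-fold (log2 change -0.98, SE 0.1001, adjusted p = 3.59e-08). CRABP2, a carrier of retinoic acid, had 30.0, 34.5 and 31.8 CPM in high and 23.7, 22.0 and 19.7 CPM in medium libraries and rose 1.48-fold (log2 change 0.56, SE 0.121, adjusted p = 4.66e-04). Neither gene had overlapping groups. TGM2, a transglutaminase, rose 2.00-fold to 257 ± 5.22 CPM, against 129 ± 1.25 CPM. ATF5 was not called (adjusted p = 0.249).

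Under the conditions of level and overlap given for the largest rises, the difference between the dose steps was largest for genes already named. SYT11 rose by 3.92 more on the log2 scale in the upper than in the lower step (SE 0.257, adjusted p = 4.64e-10), CRISPLD2 by 3.31, DPY19L2P2 by 3.30, GJD3 by 3.18 and TCN2 by 3.07. In the other direction stood MSN (-6.81), VIM (-6.76) and EMP1 (-6.42) of the palmitate split, then LINC00513 (-3.62) and SLC26A9 (-3.55, SE 0.168, adjusted p = 5.25e-12). In the lower step SYT11 changed by -0.26 and SLC26A9 by -0.07 on the log2 scale, and neither was called.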

How the data were processed

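RNA was measured in 15 libraries of HepG2 cells, 5 groups of 3, made by poly(A) selection and sequenced as paired-end reads on a DNBSEQ-T7, per the labels' protocols. The authors deposited raw counts per Ensembl gene and FPKM values per gene and library, per the file headers. FastQC, HISAT2, featureCounts and DESeq2, with builds GRCh38 and hg38, are named in the submitters' processing notes. Versions, annotation release and strand setting are not given in the sources used here. Counts from 1 to 20 were even in 69.2% of cases, against 50.5% of counts from 100 to 1000, so low counts may hold both reads of a pair and spread more than their size implies.

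Groups were taken from the labels. Counts were fitted with edgeR 4.0.16 (R 4.3.3): filterByExpr over 5 groups, TMM scaling, all 15 libraries, 1 coefficient a group and the quasi-likelihood test, with Benjamini-Hochberg adjustment over 20309 genes and a threshold of 0.05. The common biological coefficient of variation was 8.88%. CPM are TMM-scaled, whereas summed levels of lists are scaled to the library total alone. DESeq2 1.42.0 and limma 3.58.1 on log2(FPKM + 1) or log2(FPKM + 0.1), which understates changes of low genes, served as alternatives. Other alternatives changed the scaling, the filter, the threshold, the libraries fitted or the mitochondrial genes. The fits were tested on simulated data. Tables and plots used Python 3.11.15 with numpy 2.4.6, pandas 2.3.3 and matplotlib 3.10.9.

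The comparison and the 45 gene lists were chosen with earlier results of these data known. Of 1149 list names 10 had no row in the table, 1065 members were tested and 769 were called. Genes were named by rule: the 10 largest rises and falls under the conditions given beside them, up to 3 robust called members a list with the smallest adjusted p, a panel of 38 genes, and the 5 largest differences between dose steps in each direction. Some genes that these rules pick are not reported here. The palmitate split, the promoter windows of the 2 falls and of MCM6 and CCNA2, the genes that turned back and 6 further families were chosen after values were seen. Positions and gene types come from GENCODE 29, which had an entry for 37848 of the 39133 genes, and promoter windows from RefSeq (GRCh38.p14). The labels call the libraries of a group biological replicates but name no separate culture or day.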

Additional observations from a re-analysis of the deposited data

Results flagged for a closer look

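Of the results described, 1 was singled out by a test of a difference between effects. The change between high and medium butyrate differed from the change between medium and low butyrate, a dose step of the same 0.5 mM, at 6415 genes in the edgeR quasi-likelihood fit. The upper step gave 11291 calls and the lower step 0. The high libraries also stand apart from the other 12 on the first principal component, at 128 to 129, against 35.6 or less elsewhere. The 3 high libraries share a dose and, as far as the labels go, a batch with the rest, so dose and any handling particular to these libraries cannot be told apart.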

How the results depend on the processing

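Changing the tool, scaling, filter, groups fitted, block, scale or gene set gave 10123 to 11780 calls between high and medium butyrate. A threshold of 0.01 gave 9152, and a 2-fold minimum 3769 (2251 higher, 1518 lower). Leaving out 1 library gave 10293 to 10579 (4901 to 5091 higher, 5392 to 5552 lower). Medium against low butyrate gave 0 to 0 calls without 1 library, 39 with no filter on low counts (17 higher, 22 lower), and 1, a rise, with the compared groups alone or on FPKM with either pseudocount. For the difference of the steps the counts were 5061 to 6106 without 1 library (1950 to 2477 higher, 3111 to 3704 lower), 2313 at 2-fold (1093 and 1220), 4125 rises on FPKM with a pseudocount of 1 and 1658 at a threshold of 0.01. For low butyrate against palmitate they were 9031 to 10152 (4746 to 5183 higher, 4167 to 4970 lower) and 3242 at 2-fold (2964 and 278). Rises after a rise numbered 2249 to 2511 without 1 library and 1109 at 2-fold, rises after a fall 443 to 673, 10 at 2-fold and 329 at 0.01, falls after a rise 714 to 944, 171 and 496, and falls after a fall 2600 to 2929 and 98 at 2-fold. Called list members numbered 719 to 738 without 1 library and 234 at 2-fold, and the difference in mitochondrial share was 2.11 to 3.33 points. These higher thresholds leave fewer genes by construction, and the cause of the other shifts was not tested. No called gene among the 285 named changed direction under any alternative run. Apart from the stricter thresholds and the alternatives chosen after seeing the data, the calls of 15 named genes ended under at least 1 alternative. Among these were SCD, ASNS, APOA1, TMSB4X, SRGN, CDH5, HOXA2, HOXA13, HOXC13, HOXD10, TUBA3E, ARRDC2, FXYD5 and SYT12. Genes without an adjusted p from DESeq2, such as MSN and EMP1, were not counted as ended there. Replicate numbers did not pair the samples (correlations of deviations -0.06 to 0.02 for equal numbers of high and medium butyrate, and 0.02 to 0.05 for medium and low), and with the replicate block 11242 genes were called. Chosen after seeing the data, leaving out the 29 genes of the palmitate split gave 11306 calls and leaving out palmitate libraries 2 and 3 gave 12277.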

Other observations

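Several gene families outside the lists above changed between high and medium butyrate member by member. They were chosen after their values were seen, so their counts describe these data only. Of all genes tested 26.9% rose and 28.7% fell. Among genes under 0.25 CPM in control, a bin partly set by the filter, 37.0% rose and 3.53% fell. Of the arrestin-domain genes, relatives of TXNIP, ARRDC4, which like TXNIP lowers glucose uptake, had 82.8, 80.7 and 78.4 CPM in the high libraries and 11.9, 11.9 and 10.4 CPM in the medium libraries. ARRDC4 rose 7.07-fold without overlap (log2 change 2.82, SE 0.0932, adjusted p = 1.88e-15), and it was not called between low butyrate and palmitate (adjusted p = 0.304). The genes of the glucose-sensing factors that switch on TXNIP and ARRDC4 moved little: MLXIP rose 1.24-fold, and MLXIPL (adjusted p = 0.856) and MLX (adjusted p = 0.247) were not called. Counted with these factors, 5 of 9 genes rose and 1 fell.

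Tubulins split by isotype, with 9 of 19 rising and 7 falling. TUBB3, the neuronal beta tubulin, had 8.95, 7.87 and 8.69 CPM in the high libraries and 2.504, 2.79 and 2.95 CPM in the medium libraries and rose 3.09-fold (log2 change 1.63, SE 0.186, adjusted p = 1.88e-07). TUBB2B rose 2.79-fold and TUBB4A 3.05-fold, while the main dividing-cell isotypes TUBB and TUBA1B fell 2.03-fold and 2.58-fold. TUBA1A had a 7.59-fold rise, but 14.3% of its exon bases overlap TUBA1C, which has 8.32 times its counts, and tubulin genes are close copies, so reads could be shared among them.

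HOX genes, which set body position in embryos, rose in 9 of 24 and fell in 6 (8 and 7 with DESeq2). Those that fell lay in the HOXB and HOXD clusters: HOXD4 had 4.39, 3.63 and 5.00 CPM in the high libraries and 31.9, 32.1 and 30.4 CPM in the medium libraries and fell 7.25-fold (log2 change -2.86, SE 0.0971, adjusted p = 2.91e-15). HOXD1 fell 7.90-fold and HOXD3 4.65-fold, both with exon bases shared with HAGLR. HOXB2 had 0 CPM in all 3 high libraries, against 0.358, 0.0393 and 0.302 CPM in the medium libraries. Rises were in the HOXA, HOXC and HOXD clusters at low levels, such as HOXC12 (3.10-fold to 2.38 ± 0.229 CPM, against 0.762 ± 0.142 CPM) and HOXC6 (4.69-fold), and the calls of HOXA2, HOXA13, HOXC13 and HOXD10 ended when some libraries were left out.

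Membrane families rose in part. Sodium pump genes rose in 4 of 8 and fell in 2: FXYD2, a regulatory subunit, fell 3.52-fold to 2.99 ± 0.449 CPM, against 10.5 ± 1.79 CPM. Aquaporins rose in 4 of 7 and fell in 0, led by AQP3, a water and glycerol channel, with 18.6, 18.1 and 15.7 CPM in the high libraries and 2.48, 2.62 and 2.49 CPM in the medium libraries (6.89-fold, log2 change 2.78, SE 0.147, adjusted p = 1.41e-12). Synaptotagmins rose in 4 of 10 and fell in 1, SYT5 by 1.88-fold upward and SYT8 by 2.90-fold downward.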
